A study of Mus musculus with 8 samples.

Results

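Of 7420 chromatin loops of newborn mouse lens fiber cells on chromosomes 1 to 19 with anchor midpoints at most 3 Mb apart, 2294 also had a counterpart in the loop list of the lens epithelium and another in that of mouse ES cells (30.9%, 95% Wilson interval 29.9 to 32.0). These 2294 loops are called common loops here. They were chosen by Hi-C calls alone: a loop counted as a counterpart when both of its anchor midpoints lay within 10 kb of those of the fiber loop. The 3 lists together hold 24146 loops. The other fiber loops within the same limits fell into 2035 lens-only loops, with a counterpart in the epithelium and none in ES cells, 574 fiber and ES loops, with one in ES cells and none in the epithelium, and 2517 fiber-only loops, with neither.

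Hi-C had been performed with 2 replicates per cell type. Lens epithelium and lens fiber cells were microdissected from newborn CD-1 mice at postnatal day 0.5, with 30 lenses pooled per replicate, so animals cannot be told apart. The v6.5 mES cell line, wild type by its label, was grown without feeders in LIF, with 2000000 cells per replicate. CTCF ChIP-seq peaks came from both lens cell types of CD-1 mice of the same age, with 1 list per cell type, each labelled as a single sample. No mutation or treatment separated the groups. Strain and culture differ between lens and ES cells along with cell type, and cannot be told apart from it. No expression values were used here, so the labelled cell types were not checked against marker genes.

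A chromatin loop in a Hi-C map is a pair of places on one chromosome that meet more often than their surroundings. In the loop extrusion model, the cohesin complex reels in chromatin until it is halted by CTCF, a zinc finger protein bound to DNA, and it is halted best when the CTCF motifs at both anchors point towards each other. Many such loops close a topologically associating domain (TAD), a stretch of chromatin that contacts itself more than its neighbours. Lens epithelial cells divide and differentiate into fiber cells, which later lose their nuclei, whereas ES cells are pluripotent.

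Because the replicates of a cell type were merged into 1 list, no spread between replicates is known, and cell types were compared without a statistical test. Intervals for shares are 95% Wilson intervals, those for ratios of shares are 95% Katz intervals, and those for medians are 95% order-statistic intervals. They cover counting error only, and loops that share an anchor are not independent of each other. The depth of the Hi-C and ChIP-seq libraries was not used here.

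CTCF sites with their sequences were read at promoters, for which RefSeq promoter windows of the build GRCm38.p6 were at hand, reaching from 250 bases before to 50 bases after a gene start. The files' build, mm10, has the same coordinates. The core of the CTCF motif was searched on both strands as AG, then A or G, then G or T, then GGC, then GC or AG, 9 letters in all. It was present in 6.23% of all 31365 promoter windows, in 9.94% (8.35 to 11.8) of the 1157 windows inside an anchor of a common loop, and in 36.8% (34.0 to 39.8) of the 1053 windows with a CTCF summit of lens fiber cells. Where a window held a fiber summit and lay in an anchor of a common loop, 47 of 105 had the core (44.8%, 35.6 to 54.3). A match is a run of letters and was not tested for binding.

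At these promoters, 44 cores lay within 100 bp of a fiber CTCF summit, counted once per anchor side, and 38 of them pointed into the common loop (86.4%, 73.3 to 93.6). At the anchor with the lower coordinate, called left, 19 of 23 were on the plus strand. At the right anchor 19 of 21 were on the minus strand. The direction was not used in choosing the loops. The same share was 82.4% of 34 cores in lens-only loops (66.5 to 91.7), 64.3% of 14 in fiber and ES loops (38.8 to 83.7) and 67.4% of 43 in fiber-only loops (52.5 to 79.5). These intervals overlap, and the difference between the classes was not tested. Over all fiber loops 91 of 120 cores pointed inwards (75.8%, 67.4 to 82.6).

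The sequences below show how direction changes with the side of the loop. They are the 4 sites with the strongest fiber peak among inward cores at left anchors, the 4 strongest at right anchors, and the 2 strongest of the 6 that pointed outwards. Each is written 5′ to 3′ on the strand that holds the core, with the core in capitals. The left anchors come first, with the core on the plus strand.
Gm36358, chr1:65112196-65112220, plus strand: tccttccaccAGGGGGCAGcaaaga
Slc36a1, chr11:55204248-55204272, plus strand: gacggccgccAGGTGGCGCtgcaga
Prmt3, chr7:49778237-49778261, plus strand: ctctgccgccAGAGGGCGCtgcgat
Tnfaip3, chr10:19015460-19015484, plus strand: gccgaccggcAGAGGGCGCtctaag
The right anchors follow, with the core on the minus strand.
Synm, chr7:67759850-67759874, minus strand: tctgtccggcAGGGGGCGCtgtccg
Spock1, chr13:57908388-57908412, minus strand: agtagccgccAGGGGGCGCcagagg
Snx18, chr13:113618694-113618718, minus strand: agccgccacaAGGTGGCAGcggcgg
Radil, chr5:142551260-142551284, minus strand: ggggaccagaAGGGGGCGCtagcgc
Both outward cores shown lie at right anchors, on the plus strand.
Hbq1a, chr11:32300075-32300099, plus strand: gagctcagccAGGGGGCAGagcgca
Lyrm9, chr11:78826520-78826544, plus strand: gatggccggcAGAGGGCGCtagggt

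The strongest of these peaks, at the promoter of the long non-coding RNA Gm36358, had a fold enrichment of 16.8 and its summit lay 27 bp from the core. The loop that starts there spans 60 kb and ends at Idh1, the cytosolic isocitrate dehydrogenase. It had 72 observed contacts in lens fiber cells, and both anchors carried CTCF in both lens cell types. At Synm, which encodes the intermediate filament protein synemin, the fold enrichment was 15.8 and the summit lay 31 bp from the core. The loop there spans 80 kb to Ttc23. At Prmt3, a protein arginine methyltransferase gene, the summit lay 10 bp from the core, and a loop of 150 kb led to the glycine transporter gene Slc6a5. Of the 10 peaks shown, the one at Snx18 was the only one without an overlapping peak in the epithelium list. The outward core of Hbq1a, an alpha-globin family gene, lay 80 bp from its summit. An inward core in the same window was nearer to that summit, at 32 bp.

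The median size of the common loops was 207.5 kb, with quartiles of 120 and 390 kb and a range from 35 to 2240 kb. The median was 300 kb in lens-only loops, 250 kb in fiber and ES loops and 300 kb in fiber-only loops. In the plot of loop size, the common loops and the fiber and ES loops end together near 2 Mb while the other classes go on to the limit of 3 Mb. Of the 82 fiber loops above that limit, 13 had counterparts in both other lists, the shortest of them at 3320 kb. Within an anchor width the order was not the same. With 5 kb anchors the median was 160 kb in common loops, 160 kb in lens-only and 90 kb in fiber-only loops. With 10 kb anchors it was 210, 190 and 150 kb, and with 25 kb anchors 400, 450 and 425 kb. Size, anchor width and contact counts come from the calls that chose the loops and are given as a description.

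**Figure D1:**
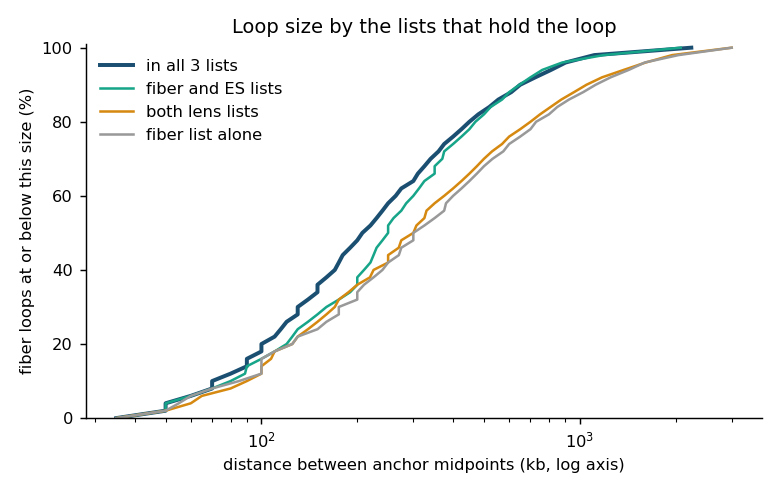
Share of fiber loops at or below a given size, with size in kb on a log axis and 1 line per class of loop. The line of the 2294 common loops reaches 50% near its median of 207.5 kb, to the left of the lens-only and fiber-only lines, which both have a median of 300 kb.

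HiCCUPS calls loops at several bin widths, and the anchors of a listed loop have the width of its bins. Common loops had anchors of 5 kb in 834 cases (36.4%), of 10 kb in 1101 (48%) and of 25 kb in 359 (15.6%). Fiber-only loops had 97, 815 and 1605 at these widths. Put the other way, 69.2% of the fiber loops with 5 kb anchors were common, 35.6% of those with 10 kb anchors and 11.5% of those with 25 kb anchors. The tolerance of 10 kb is narrower than a 25 kb bin, so that a shift by 1 bin at that width loses the counterpart. Anchor width therefore went with class, and comparisons of classes are given within a width below.

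Each common loop had a counterpart of its own in both other lists. The larger of the midpoint shifts was 0 kb in 392 loops, 2.5 kb in 405, 5 kb in 396 and 7.5 kb in 456. Just inside the limit, 645 loops had a shift of 10 kb, and just outside it 330 more fiber loops would have entered at 12.5 kb. The same anchor width in all 3 lists was found for 1038 common loops (45.2%), and identical anchors for 390 (17%). The counterparts were called with 5 kb anchors in 39.3% of cases in the epithelium and in 58.4% in ES cells, against 36.4% in fiber cells.

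The enrichment of a loop is given here as the ratio of observed contacts to those expected from its surroundings (the donut of HiCCUPS). Its median over the common loops was 3.47 (3.41 to 3.51) in lens fiber cells, 3.85 (3.78 to 3.92) in the epithelium and 3.57 (3.50 to 3.66) in ES cells. Median observed contacts were 47, 39 and 55, which are raw counts of maps of unequal depth. Wider bins give lower ratios, so the cell types were compared over the 1038 loops with 1 width in all lists. For the 567 of these with 5 kb anchors the median ratio was 4.50 in fiber cells, 5.15 in the epithelium and 4.43 in ES cells. With 10 kb anchors (332 loops) it was 3.16, 3.44 and 2.83, and with 25 kb anchors (139 loops) it was 2.65, 2.88 and 2.42. The epithelium thus had the highest median at every width, among loops chosen by calls on these same maps. It also had the lowest median of observed contacts at every width. With 5 kb anchors this was 28, against 31 in fiber cells and 52 in ES cells. The part of unequal depth in this order was not tested.

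Loop by loop, the fiber ratio was above the epithelium ratio in 286 of the 1038 loops (27.6%) and above the ES cell ratio in 633 (61%). The median log2 ratio was −0.13 for fiber cells to epithelium, 0.09 for fiber cells to ES cells and 0.22 for epithelium to ES cells. Across loops of 1 width, Spearman's rho between fiber cells and epithelium was 0.581 over the 567 loops with 5 kb anchors, 0.678 over the 332 with 10 kb and 0.743 over the 139 with 25 kb. Between fiber cells and ES cells it was 0.524, 0.621 and 0.611. Over all 1038 loops the values were higher, at 0.83 and 0.78, where anchor width, which is shared by all lists, moves with the ratio. The coefficients are a description, and some loops share anchors. In the plot of these ratios most points lie below the diagonal on the epithelium side and on both sides of it for ES cells.

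**Figure D2:**
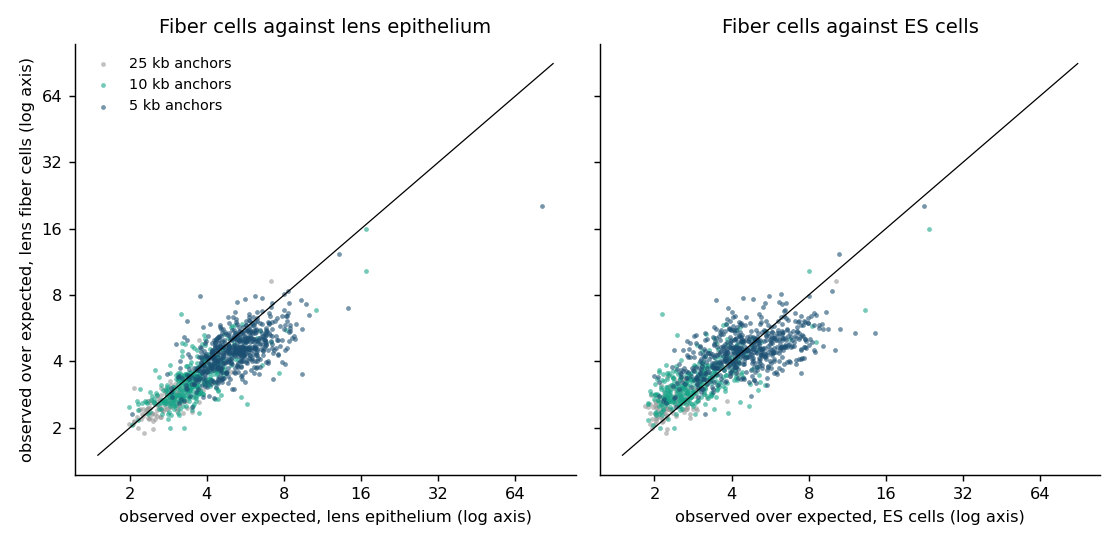
Observed over expected contacts of the 1038 common loops with 1 anchor width in all lists, lens fiber cells on the vertical axis against lens epithelium (left) or ES cells (right), both axes log, 1 point per loop coloured by anchor width. The line marks equal values, and 27.6% of the points lie above it on the left and 61% on the right.

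Large differences between cell types were rare among the 798 of these loops with at least 5 expected contacts in every list. The log2 ratio of ES cells to the geometric mean of both lens cell types was above 1 in 1 loop and below −1 in 2 loops. All 798 loops had been called in every list at the same anchor width. Loops too weak to be called in a cell type were thus left out beforehand. The rarity of large differences therefore cannot show how alike the cell types are. Among the 798, the loops with the highest and lowest values are named after their values were seen. The loop highest in ES cells spans 70 kb on chromosome 15, from 101990001 to 102065000, and encloses Krt8 and Krt18, the keratin pair of simple epithelia and early embryos. It had 172 observed contacts and a ratio of 14.5 in ES cells, against 52 and 5.41 in fiber cells and 51 and 6.56 in the epithelium. Neither 5 kb anchor overlapped a CTCF peak in either lens list. The wider site from 101970001 to 101995000, which holds the left anchor, had 5 fiber and 3 epithelium peaks. The second highest joined 1 end of Meis2, a homeobox gene expressed in the early lens, to a place 210 kb away, just beside the other end of the gene. The ratios of this loop were 9.12 in ES cells, 4.69 in fiber cells and 4.87 in the epithelium. Further down, a loop of 150 kb that encloses the epidermal regulator Grhl3 had ratios of 7.36, 4.08 and 3.83, and a loop of 70 kb around the endocrine factor Neurog3 had 7.14, 3.91 and 3.88.

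The loop lowest in ES cells, of 70 kb on chromosome 11, joined the olfactory receptor genes Olfr322 and Olfr317. Its ratio was 2.22 in ES cells, 3.86 in fiber cells and 6.56 in the epithelium. The genes are of 1 family, where reads can be placed on the wrong copy, so these values are uncertain. Loops of 50 kb within Igfbp7, a secreted growth factor binding protein, and within Piezo1, a mechanosensitive channel, were also among the 10 lowest. Igfbp7 had 2.01 in ES cells against 3.16 in fiber cells and 4.07 in the epithelium, and Piezo1 had 2.72 against 4.57 and 5.29. Between the lens cell types, the loop with the greatest excess in fiber cells spans 220 kb around Tnfrsf21, with 7.94 in fiber cells and 3.77 in the epithelium. The reverse was greatest for a loop of 440 kb that starts at the protocadherin gene Pcdh8, with 2.56 in fiber cells and 5.75 in the epithelium. Each of these values rests on 1 merged map per cell type.

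Common loops carried CTCF at both anchors more often than loops of the fiber list alone. A fiber CTCF peak overlapped both anchors in 1035 of 2294 common loops (45.1%, 43.1 to 47.2), 1 anchor in 974 (42.5%) and neither in 285 (12.4%). Over all fiber loops within the limits, both anchors were bound in 39.6%. The share was 39.9% in lens-only loops, 45.8% in fiber and ES loops and 32.9% in fiber-only loops. Relative to fiber-only loops the share was 1.37 times as high (1.28 to 1.47), and relative to lens-only loops 1.13 times (1.05 to 1.21). Against fiber and ES loops the ratio was 0.985 (0.891 to 1.09). These loops, which lack only the epithelium counterpart, could thus not be set apart from common loops by fiber CTCF over all widths.

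Within a width the gap to fiber-only loops was wider. Narrow anchors were bound less often than wide ones in each class, and common loops have the most narrow anchors. With 5 kb anchors 39.2% of common loops were bound at both ends against 15.5% of fiber-only loops (ratio 2.54, 1.58 to 4.07). With 10 kb anchors it was 44.1% against 24.3% (ratio 1.82, 1.58 to 2.09), and with 25 kb anchors 61.8% against 38.3% (ratio 1.61, 1.46 to 1.79). Lens-only loops lay between them, at 23.7%, 32% and 51%. Fiber and ES loops reached 37.5%, 40.6% and 55.2%, and the ratio of common loops to them had an interval that included 1 at each width.

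**Figure D3:**
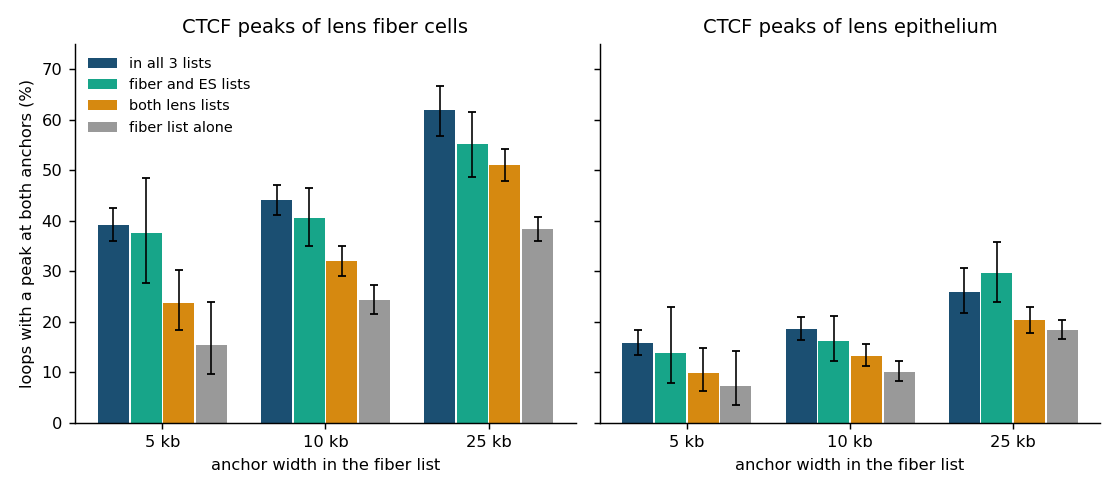
Share of fiber loops with a CTCF peak at both anchors, in percent, by anchor width and class, for fiber peaks (left) and epithelium peaks (right), with 95% Wilson intervals as error bars. Common loops are at 39.2%, 44.1% and 61.8% on the left, above lens-only and fiber-only loops at each width.

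The peaks of the lens epithelium gave lower shares. The paper reports fewer CTCF peaks in the epithelium than in fiber cells, and the anchors are those of the fiber list. How far this lowers the shares was not tested. Both anchors carried an epithelium peak in 18.7% of common loops (17.2 to 20.3), beside 17% of all fiber loops, 16.2% of lens-only, 21.1% of fiber and ES and 15.3% of fiber-only loops. At 10 kb anchors the shares were 18.5% for common and 10.1% for fiber-only loops (ratio 1.84, 1.45 to 2.34). The ratio of common to fiber and ES loops at this width was 1.14 (0.848 to 1.54). Up to 150 kb in size it was 1.98 (1.06 to 3.69), with 18.9% against 9.52%, and from 150 to 300 kb 0.864 (0.552 to 1.35). Both lists covered both anchors in 402 common loops (17.5%), the fiber list alone did in 633 (27.6%) and the epithelium list alone in 27 (1.18%). No peak of either list touched an anchor in 262 common loops (11.4%, 10.2 to 12.8), against 18% of fiber-only loops (16.6 to 19.6). Here and below, a loop without a peak at an anchor can have one just beside it. With anchors widened by 5 kb, fiber CTCF lay at both in 70.9% of common loops. CTCF peaks of ES cells were not analysed here.

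The gap to fiber-only loops was seen at most sizes and at each level of contacts. Among loops with 10 kb anchors, the ratio of the fiber CTCF shares was 2.25 (1.79 to 2.83) up to 150 kb, 1.76 (1.36 to 2.28) from 150 to 300 kb and 1.41 (1.03 to 1.93) from 300 to 600 kb. Above 600 kb it was 1.25 (0.895 to 1.75), and no difference was detectable there. Lens-only loops above 600 kb had a share of 46.1%, beside 44.4% in common loops. With the 10 kb loops split into 3 equal groups by observed contacts, at 46 and 61, the ratio to fiber-only loops was 1.62, 1.64 and 2.28 from the lowest group to the highest. By chromosome, the share at 10 kb anchors was higher in common than in fiber-only loops on 17 of 19 chromosomes. The exceptions were chromosome 6, with 34.3% and 34.8%, and chromosome 18, with 23.5% and 32%. The share of fiber loops that were common ran from 26.1% on chromosome 14 to 35.6% on chromosome 11.

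The peaks themselves had similar median strength. Of 4461 distinct anchors of common loops, 2940 carried a fiber peak (65.9%, 64.5 to 67.3), against 55.2% (53.8 to 56.6) of the anchors of fiber-only loops. At 10 kb anchors the shares were 65.3% and 47.3%. The strongest peak of a bound anchor had a median fold enrichment of 7.69 in common loops and 7.59 in fiber-only loops. Of the peaks at common anchors 55.4% (53.7 to 57.1) overlapped an epithelium peak, as did 54.3% (52.6 to 56.0) of those at fiber-only anchors and 50.1% of all 23868 fiber peaks.

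Summits of CTCF peaks lay close to the anchor midpoints and more often on the outer side. Around the 1854 anchors of common loops with 10 kb anchors and a size of at least 100 kb, 75.1 fiber summits per 100 anchors lay within 5 kb of the midpoint. Between 5 and 15 kb there were 37.6 on the outer side and 14.3 on the inner side. The left anchors had 363 summits outside and 129 inside in this range, and the right anchors had 335 and 136, so that the outward lean was present on both sides. From 20 to 40 kb, the density was 16.5 summits per 100 anchors and 10 kb on the outer side and 5.47 on the inner side. Fiber-only loops had 57.9 within 5 kb, then 33.9 outside and 13.3 inside between 5 and 15 kb. The lean was thus shared by both classes, while the density at the midpoint was higher in common loops.

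**Figure D4:**
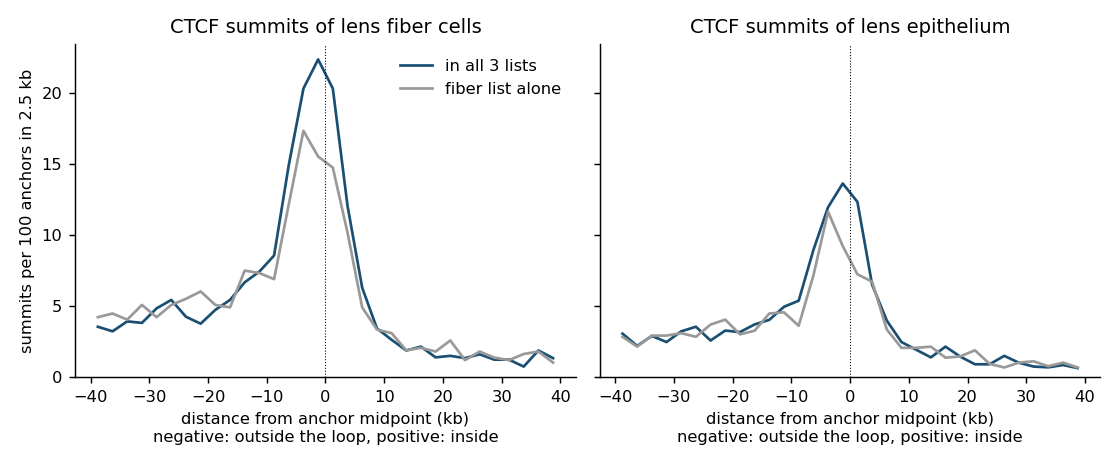
CTCF summits per 100 anchors in bins of 2.5 kb against the distance from the anchor midpoint in kb, negative outside and positive inside the loop, for loops of at least 100 kb with 10 kb anchors, with fiber summits on the left and epithelium summits on the right. The highest bin of common loops holds 22.4 fiber summits at −1.25 kb, and that of fiber-only loops holds 17.4 at −3.75 kb.

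In both lens cell types, the median ratio of observed to expected contacts rose slightly with the number of anchors bound by fiber CTCF within each width. Among common loops of 5 kb in all lists, the median ratio in fiber cells was 4.20 (3.80 to 4.46) with no bound anchor, 4.46 (4.36 to 4.58) with 1 and 4.69 (4.52 to 4.90) with both. Here the intervals of none and both do not overlap. For 10 kb anchors the median was 3.01 (2.79 to 3.36), 3.07 (2.91 to 3.23) and 3.37 (3.16 to 3.51), where the intervals of none and both overlap. For 25 kb anchors it was 2.52 (2.43 to 2.67) with 1 bound anchor and 2.71 (2.62 to 2.82) with both, and these intervals overlap. Over all widths the medians were 3.75, 3.78 and 3.84, which pool loops of different anchor width. In the epithelium the same loops had medians of 4.91, 5.08 and 5.32 with 5 kb anchors and 3.28, 3.44 and 3.52 with 10 kb. With 25 kb anchors the epithelium medians were 2.72 with 1 bound anchor and 2.96 with both, all without intervals. Loops without a bound anchor were shorter, with median sizes of 115, 160 and 160 kb at 5 kb anchors. At 10 kb anchors the sizes were 180, 250 and 240 kb, and the part of size was not tested. In ES cells the same 5 kb loops had medians of 4.48 (4.06 to 4.95), 4.41 (4.18 to 4.77) and 4.45 (4.29 to 4.87), with intervals that overlap. The 10 kb loops had 2.67 (2.44 to 2.89), 2.80 (2.65 to 3.04) and 2.95 (2.71 to 3.16) in ES cells, where the intervals overlap as well. The 262 common loops with no lens CTCF peak at either anchor had a median size of 165 kb, against 230 kb for those bound at both.

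Common loops were corners of a TAD more often than fiber-only loops at each anchor width. Both anchor midpoints lay within 25 kb of the ends of 1 fiber TAD in 801 common loops (34.9%, 33.0 to 36.9), beside 21.5% of all fiber loops, 19.7% of lens-only, 19.5% of fiber and ES and 11.2% of fiber-only loops. With 10 kb anchors the shares were 34.2%, 30.1%, 23.2% and 20.7% for common, lens-only, fiber and ES, and fiber-only loops, and the intervals of common (31.4 to 37.0) and lens-only loops (27.2 to 33.2) overlap. With 5 kb anchors they were 46.6%, 36.1%, 32.5% and 26.8%. With 25 kb anchors common loops (10%) were near fiber and ES loops (10.3%), and lens-only and fiber-only loops had 6.12% and 5.36%. A corner in the TAD lists of all 3 cell types was found for 275 common loops (12%, 10.7 to 13.4), beside 5.77% of all fiber loops. TADs were called by Arrowhead on the same maps, so this is no independent measure. The 275 loops had a median size of 105 kb, and 1123 common loops that were no corner in any list had 255 kb. Fiber CTCF lay at both anchors in 46.9% of the former (41.1 to 52.8) and in 46.1% of the latter (43.2 to 49.1), and no difference was detectable.

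Anchors of common loops within 10 kb of each other were joined into 4089 sites, of which 424 held 2 common loops and 36 held 3 or 4. A fiber CTCF peak lay in 63.7% of sites with 1 loop, in 88.4% of those with 2 and in all 36 of the others. The median span of a site rose as well, from 10 to 15 and 20 kb, and its part in the higher share was not tested. Of the sites with several loops, 18.3% had loops leaving on both sides.

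The 5 sites first by number of loops lay at Blk, Krt78, Adamts1, Fmod and Gpa33. Those at Fmod and Gpa33 hold 3 loops each and are tied with other sites of 3 loops. At Blk, a kinase gene of B cells, 4 loops met between 63370001 and 63390000 on chromosome 14. They led to Gata4, a regulator of heart and endoderm, at 160 kb, to Fam167a at 80 kb, to Mtmr9 at 150 kb and to a place without a gene at 300 kb. At Adamts1, which encodes a secreted metalloproteinase, all 4 loops ran in 1 direction, over 615, 835, 1070 and 1445 kb. The loop of 1445 kb had its anchor over the gene, and the others had theirs beside it. At Krt78 3 loops ended and 1 began, the latter being the 70 kb loop around Krt8 and Krt18. Fmod and Prelp encode small leucine-rich proteoglycans of the extracellular matrix, and a loop of 135 kb joined them. At Gpa33, loops led to the POU factor gene Pou2f1 at 150 kb, to Ildr2 at 150 kb and to Creg1 and Cd247 at 375 kb.

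The 10 highest ratios in fiber cells all rested on fewer than 5 expected contacts, as those of 157 common loops did. The 3 highest join genes of 1 family, where reads can be placed on the wrong copy, so they are uncertain. The first had 18 observed contacts over 730 kb between Skint6 and Skint5, with a ratio of 39.8. The second, with 84 contacts and 23.8, joined Mptx2 and Mptx1 over 1060 kb, and the next, with 16 contacts and 20.2, joined Ang and Rnase4 to Ang4 over 675 kb. No lens CTCF peak lay at the Skint and Mptx loops. Among loops with at least 5 expected contacts the highest ratio was 7.94. The longest common loop spans 2240 kb on chromosome 5, from 5750001 to 8000000, with 58 observed contacts in fiber cells, 49 in the epithelium and 54 in ES cells, and with fiber and epithelium CTCF at both ends.

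Among 20665 protein-coding genes, 2336 (11.3%) had an anchor of a common loop over the gene body, and 1425 had one at a gene end. The listed genes are read against this share and against gene length, since longer genes meet more anchors. The median length is 17.5 kb over all genes, and 29.7% of them had an anchor of any fiber loop within the limits.

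Of 20 lens transcription factors, 8 had a common anchor (40%, 21.9 to 61.3): Gata3, Meis1, Meis2, Pax6, Pitx3, Rarb, Six3 and Sox2. Their median length is 27.0 kb, and 17 of the 20 had some fiber loop. Pax6, the paired-box factor on which eye formation depends, lay at a loop of 50 kb with 86 observed contacts in fiber cells, 83 in the epithelium and 130 in ES cells. Its ratios were 2.34, 3.09 and 2.01. The paper reports very limited activity at Pax6 in ES cells and markedly different looping in lens cells. A single common loop does not describe the locus. Pitx3, a homeobox factor of the lens, was joined to Gbf1 by a loop of 115 kb with 41, 32 and 59 contacts and ratios of 3.71, 3.40 and 3.05. Sox2, which acts in ES cells as well as in the early lens, had a loop of 840 kb with ratios of 4.28, 4.95 and 4.22 and CTCF of both lens lists at both anchors. No error can be given for the differences between cell types at these 3 loops.

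Meis1 and Meis2, TALE homeobox factors, had their highest ratios in ES cells. The Meis1 loop of 135 kb had 155 contacts and a ratio of 12.1 in ES cells, beside 40 and 5.37 in fiber cells and 24 and 5.15 in the epithelium, and no lens CTCF peak lay at its anchors. The epithelium value rests on 4.66 expected contacts. The Six3 loop of 800 kb, with 25 kb anchors in all lists, had ratios of 2.62, 3.73 and 2.61. At Gata3 and Rarb the anchor widths differed between lists, so their ratios are not compared.

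Of 21 crystallins and other lens structural genes, Crygs, encoding a gamma-crystallin, had a common anchor (4.76%, 0.846 to 22.7), an interval that includes the share of all genes, at a loop of 500 kb with 147 observed contacts in fiber cells. Their median length is 6.40 kb, and 5 of the 21 had any fiber loop. Of 16 pluripotency genes, Prdm14 and Tbx3 had a common anchor (12.5%, 3.50 to 36.0). The Tbx3 loop of 810 kb had ratios of 3.94 in fiber cells, 3.66 in the epithelium and 3.51 in ES cells, and the anchors of both counterparts lay beside the gene. Both genes also act outside pluripotent cells.

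Hox genes, which give position along the body axis, had a common anchor in 14 of 39 cases (35.9%, 22.7 to 51.6), although they are short, with a median length of 3.74 kb. Any fiber loop had an anchor over 26 of the 39 (66.7%), so their share of any loop was high as well. Hox genes lie in 4 clusters and share anchors, so the genes are not independent. A single loop of 340 kb from Hoxa3, Hoxa5 and Hoxa6 to Skap2 had ratios of 3.44, 3.56 and 4.16 in fiber cells, epithelium and ES cells. The 435 kb loop that begins at Hoxd3 had 21, 19 and 40 contacts and ratios of 4.73, 4.48 and 8.05, with no lens CTCF peak at either anchor. It had fewer than 5 expected contacts in every list. For Hoxd13, Hoxc9, Hoxc4 and 1 of the 2 loops at Hoxd8 and Hoxd9, the ES cell counterpart lay within 10 kb but not over the gene.

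Of 20 signalling genes of development, 9 had a common anchor (45%, 25.8 to 65.8): the FGF receptors Fgfr1, Fgfr2 and Fgfr3, the retinoid receptors Rara and Rxra, and the ligands Wnt5a, Wnt5b, Wnt7a and Wnt7b. The median length of the 20 genes is 40.5 kb, and 13 of them had any fiber loop (65%), so their share of any loop was high as well. FGF signalling drives fiber cell differentiation. The Fgfr1 loop of 300 kb had nearly the same ratio in each cell type, at 4.14 in fiber cells, 4.21 in the epithelium and 4.11 in ES cells, with CTCF of both lens lists at both anchors. The Fgfr2 loop of 610 kb had 5.32, 6.76 and 6.30, but the anchors of its epithelium and ES cell counterparts lay beside the gene and not over it. Fgfr3 had a loop of 40 kb with 2.63, 3.25 and 2.16. Wnt7a had the loop with the highest fiber ratio of this list, of 125 kb with ratios of 6.41, 8.12 and 7.48. The Rxra loop of 210 kb had 5.21 in fiber cells, 6.65 in the epithelium and 7.58 in ES cells, but its epithelium counterpart lay beside the gene. Expected contacts in the epithelium were below 5 at Rxra and Fgfr2.

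Of 16 imprinted genes, Gnas, Grb10 and Kcnq1 had a common anchor (18.8%, 6.59 to 43.0). Kcnq1, a potassium channel gene in an imprinted cluster, had a loop of 315 kb with 50, 39 and 72 contacts and ratios of 7.33, 7.19 and 6.54, among the higher ones at listed genes. Its right anchor holds the inward core at the promoter of Gm33663. Grb10, a growth factor receptor adaptor, was joined to Ddc over 150 kb, with ratios of 4.69, 5.53 and 7.03, the epithelium value on fewer than 5 expected contacts. Gnas, encoding a G protein subunit, was reached by 4 common loops of 360 to 700 kb. Of 12 CTCF and cohesin genes found, Nipbl, the cohesin loader, had a common anchor (8.33%, 1.49 to 35.4). Of 19 genes used in most cells, Gapdh and Tubb5 had one (10.5%, 2.94 to 31.4), close to the share of all genes. The ES cell counterpart at Gapdh and the epithelium counterpart at Tubb5 lay beside the gene. In the plot of loops at listed genes, Meis1, Meis2 and Hoxd3 stand apart by their ES cell values, though of these Meis2 alone had at least 5 expected contacts in every list.

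**Figure D5:**
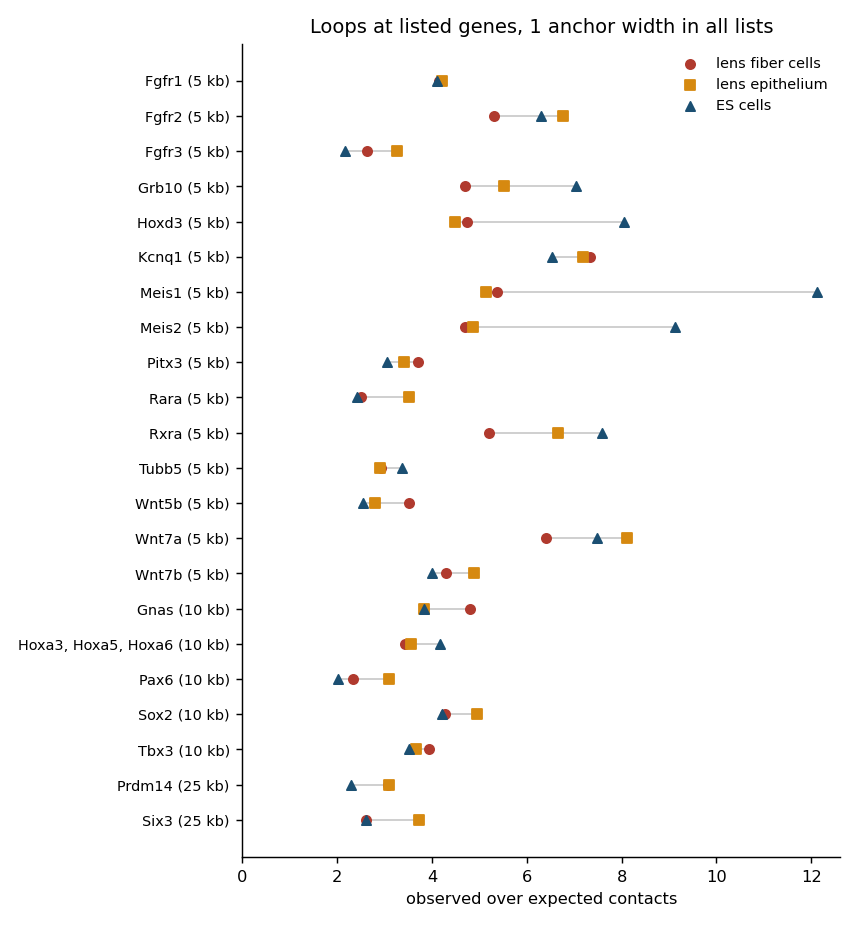
Observed over expected contacts in lens fiber cells (circles), lens epithelium (squares) and ES cells (triangles) for the common loops at listed genes that had 1 anchor width, given in brackets, in all lists. Most loops have their 3 values close together, whereas the ES cell values of Meis1 (12.1), Meis2 (9.12) and Hoxd3 (8.05) lie above both lens values, with fewer than 5 expected contacts in the epithelium at Meis1 and in every list at Hoxd3.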

How the data were processed

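Mouse Hi-C loops and TADs of 3 cell types and CTCF peaks of both lens cell types were used as deposited. Per the submitters' processing notes and the paper's methods, the authors aligned Hi-C reads with BWA to mm10, kept a MAPQ of at least 30, merged both replicates with Juicer, and called TADs with Arrowhead and loops with HiCCUPS (juicer_tools 2.13.06). Of the deposited loop values, observed contacts are a raw count, expected contacts were made by HiCCUPS, and each FDR is a q-value. For the deposited CTCF peaks, MACS2 gave a score, a fold enrichment as a ratio over background, and a p-value and q-value as −log10. The methods name 2 ChIP-seq replicates, the labels 1 sample, and 1 list was given per cell type.

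Loops were matched by midpoints, CTCF peaks were counted at an anchor with at least 1 bp of overlap, and ratios of observed to donut-expected contacts were computed in Python 3.11.15 (scipy 1.17.1, numpy 2.4.6, pandas 2.3.3). Figures were made with matplotlib 3.10.9. Matching and overlap were tested on simulated data. No statistical test was made, because each cell type had 1 merged list and so no replicate error. The members, gene lists and rules were chosen with earlier results of these data known. By rule, the text names the 10 common loops with the highest ratio in fiber cells and the 5 longest, of which a part is described. It also names the 5 sites first by number of loops, where ties were cut, and the listed genes at an anchor. Other loops, and the direction of motifs by class, were chosen after seeing the data. Motif direction had been planned around all summits and was read at promoter windows only, since no genome was used here. Gene names and sequences come from RefSeq (GRCm38.p6). Coordinates count from 1. Alternatives were tried for the tolerance, overlap, size limit, anchor width, FDR, peak strength, anchor window, TAD ends, expected count and gene ends. Compartments, expression and ES cell CTCF peaks were not analysed here.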

Additional observations from a re-analysis of the deposited data

How the results depend on the processing

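No paired analysis was possible because both replicates of each cell type were merged by the authors into 1 list. The ratio of the fiber CTCF share in common loops to that in fiber-only loops stayed above 1 in each of its 12 alternatives. In the settings below the values are, in order where given, the number of common loops, the percent with fiber CTCF at both anchors, the percent with epithelium CTCF at both anchors, the percent at fiber TAD corners, the median ratio of observed to expected contacts, and the ratio of CTCF shares. With a tolerance of 5 kb there were 1193 common loops, 53.6% with fiber CTCF, 22.0% with epithelium CTCF, a median ratio of 3.74 and a ratio of shares of 1.67. With 25 kb there were 3344, fiber CTCF was at 41.8%, TAD corners at 32.5%, the median at 3.27 and the ratio of shares at 1.20. With overlap of both anchors in place of midpoints, 1195 loops were common, with 60.8%, 25.4%, 25.02%, 3.13 and 2.10. With 5 kb anchors only, these were 834 loops, 39.2%, 15.8%, 46.6%, 4.47 and 2.54. With 10 kb anchors only, 1101 loops had a median of 3.17 and a ratio of shares of 1.82. With 25 kb anchors only, they were 359 loops, 61.8%, 25.9%, 10.0%, 2.55 and 1.61.

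With the stronger 50% of peaks the CTCF shares were 22.9% and 6.80% and their ratio 1.48. Widening anchors by 5 kb gave 70.9% and 33.3% with a ratio of 1.48, and 10 kb around each midpoint gave 48.1% with a ratio of 3.14. A fixed window narrows the 25 kb anchors, which 63.8% of fiber-only and 15.6% of common loops have, and widens the 5 kb ones. The 3.14 is therefore not a comparison within a width. TAD corners were 16.6% within 10 kb and 40.5% within 50 kb. The highest of the 4 expected counts gave a median of 2.60. Genes at anchors fell to 1425 when an anchor had to meet a gene end. With loops of at most 2 Mb, 2293 were common, 45.1% had fiber CTCF at both anchors, and the ratio of shares was 1.38. With an FDR below 0.01 these were 2220, 45.6% and 1.37. Peaks with a −log10 q above 3 gave 44.2% and a ratio of 1.36. The share of inward cores was 83% of 47 when the core could lie anywhere in the window, an alternative chosen after seeing the data. For the values that moved, the cause was not tested.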
